A study of Mus musculus with 6 samples.

Results

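Transcripts of integrin and focal adhesion genes were measured after 4 days of TGFB1 in cultured mouse ovarian surface epithelial cells. Focal adhesions are the sites where a cell holds on to its matrix. The set was 45 genes taken by symbol from the deposited table of 35688 gene rows, 18 for integrin chains and 27 for adhesion adaptors, and every symbol had 1 row. The libraries came from m1102, a line of the cell layer that covers the ovary. There were 3 libraries of untreated cells (untreated 1 to 3) and 3 of cells given 10 ng/mL TGFB1 (TGFB1 1 to 3), a cytokine known for inducing matrix and contractile genes. No time is listed for the untreated libraries. All cultures were grown in the same medium with serum, insulin-transferrin-selenium and EGF, and 1 line stands behind all 6 libraries. Values are transcript abundances on the TPM scale, which corrects for transcript length and library depth, and they hold no read counts.

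An integrin is a pair of 1 alpha and 1 beta chain that spans the membrane, and the pair decides the ligand. Chains alpha3, alpha6 and alpha7 bind laminins, alpha1, alpha2 and alpha11 bind collagens, and alpha5, alpha8 and alphaV bind proteins with the Arg-Gly-Asp motif such as fibronectin. Inside the cell, talin and kindlin switch integrins on, vinculin, tensin and alpha-actinin tie them to actin, the kinases FAK and SRC with paxillin and p130Cas carry signals, and zyxin-family LIM proteins gather at adhesions under tension. Several alphaV integrins also bind latent TGFB and can release the active cytokine.

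The limma test was run on log2(TPM + 1) for genes whose mean over all 6 libraries reached 1 TPM, and a gene was called at a Benjamini-Hochberg adjusted p under 0.05 over all 12257 tested genes. Fold changes are given on that log2(TPM + 1) scale, where low genes appear to change less than they do. All 27 adaptors and 9 of the 18 integrin genes passed the filter, each with a mean above 1 TPM in both groups. Of these 36 genes 15 rose and 5 fell with TGFB1, 55.6%, where 30.4% of all tested genes were called. The share that rose was 41.7%, against 15.8% of all tested genes, and the share that fell was 13.9%, against 14.6%. Their median log2 fold change was 0.08, beside 0.02 for all tested genes, and their median change in size was 0.43, beside 0.21. Treated and untreated values stayed apart for 25 of the 36 genes (49.8% of all tested genes), 17 of them higher (26.3% of all) and 8 lower (23.6%) with TGFB1. No label says that the samples came from separate cultures, so p-values here reflect only the scatter among these libraries, which may be technical.

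TGFB1 1 stood apart from the other treated libraries: on the first principal component of all tested genes, with 70.7% of the variance, it scored 46.6, TGFB1 2 and TGFB1 3 scored 20.2 and 18.1, and the untreated libraries -29.8 to -27.1. Of 12 listed markers of ovarian surface epithelium and mesothelium 8 had a mean of at least 1 TPM, and Krt8, Lhx9 and Cdh1 lay under 0.5 TPM in every library. Their summed level was 1775 to 1888 TPM untreated and 843 to 1220 TPM treated, and 5 of the 8 fell. In the lists of other cell types, Ptprc (leukocytes), Cdh5 and Kdr (endothelium), Fshr (granulosa cells) and Myh11 (smooth muscle) also stayed under 0.5 TPM, but other markers did not. The granulosa marker Foxl2 was at 18.5 ± 1.15 and 22.7 ± 0.549 TPM and was called higher (adjusted p = 0.0265), and the smooth muscle marker Smtn, at 71.3 ± 4.76 and 47.1 ± 3.26 TPM, was called lower (adjusted p = 0.00284). Pecam1, an endothelial marker, was at 0.989 ± 0.108 and 1.43 ± 0.265 TPM and was not called. Dcn, a stromal proteoglycan gene, fell from 1362 ± 112 to 616 ± 28.0 TPM (means ± SD of 3 libraries in each group, as in all later pairs), Star, a steroidogenic gene, fell from 299.6 ± 23.9 to 143 ± 55.7 TPM, and Cd68, a lysosomal gene used as a macrophage marker, from 22.7 ± 4.09 to 8.79 ± 1.42 TPM. Cyp17a1, Lhcgr and Hsd3b1, listed with Star, stayed under 0.5 TPM in every library. Among the other stromal markers Pdgfra was at 6.34 ± 1.33 and 7.65 ± 0.326 TPM and was not called. Lum and Pdgfrb had means under 0.5 TPM in both groups. The part of these markers in the results below was not tested. In bulk RNA, fewer cells of a type and less RNA per cell cannot be told apart.

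In the set, both tested alpha chains for Arg-Gly-Asp ligands, Itga5 and Itgav, rose about as much as the beta chain Itgb1. None of the 3 laminin-binding alpha chains was called higher. Itgb8, whose product pairs only with alphaV, fell. The difference between ligand classes was not tested. Of the 9 integrin genes tested 5 rose and 2 fell, with a median log2 fold change of 0.93. The shares were 55.6% and 22.2%, against 15.8% and 14.6% of all tested genes.

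Itga5 encodes the alpha chain of the main fibronectin receptor. It measured 47.7, 42.6 and 48.2 TPM in untreated 1 to 3 and 137, 88.5 and 86.0 TPM in TGFB1 1 to 3. All treated libraries lay above all untreated ones, with TGFB1 1 the highest, and the log2 fold change was 1.12 (SE 0.18, adjusted p = 0.00519). Itgav, the alpha chain shared by the receptors for vitronectin and latent TGFB, was at 83.5, 87.7 and 84.6 TPM untreated and at 206, 150.3 and 142 TPM treated. Its untreated values were tight and its log2 fold change was 0.93 (SE 0.14, adjusted p = 0.00394). Itga8, the third alpha chain of this class in the set, was under 0.1 TPM in every library and listed at 0 in all treated ones.

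Of the laminin-binding alpha chains Itga6 and Itga3 had the highest mean abundance of all alpha chains in both groups. Itga6, which pairs with beta1 or with the hemidesmosomal beta4, was at 326, 379 and 362 TPM untreated and at 215, 320.1 and 351 TPM treated. Only TGFB1 1 lay below the untreated range by a wide margin, TGFB1 3 lay inside it, and the difference did not pass (log2 fold change -0.30, 95% interval -0.72 to 0.13, adjusted p = 0.251). Itga3, the alpha chain of an epithelial laminin receptor, measured 218, 239 and 243 TPM untreated and 203, 204 and 199 TPM treated. The groups did not overlap and it was called lower (log2 fold change -0.21, SE 0.060, adjusted p = 0.0402), the smallest called change among the integrins. That call was lost in 9 of 16 alternative fits, a replicate block among them (adjusted p up to 0.142). Itga7, best known from muscle, was at 53.3, 44.3 and 49.9 TPM untreated and at 47.2, 38.9 and 41.5 TPM treated, with overlapping groups (log2 fold change -0.21, 95% interval -0.44 to 0.03, adjusted p = 0.162). Without TGFB1 1 it was called lower, at -0.28 (adjusted p = 0.0492).

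Itgb1, the beta chain that pairs with most alpha chains, was the most abundant integrin transcript in both groups. It was at 441, 476 and 499 TPM in untreated 1 to 3 and at 1098, 948 and 917 TPM in TGFB1 1 to 3. Every treated value was above every untreated one, with the treated mean 2.09 times the untreated mean (log2 fold change 1.06, SE 0.085, adjusted p = 0.000539). Itgb5, which pairs with alphaV, measured 122, 149 and 136 TPM untreated and 375, 319 and 312 TPM treated. It changed by 1.30 (SE 0.0998, adjusted p = 0.000494), and without any one library by 1.21 to 1.37.

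Low-abundance beta chains moved both ways. Itgb3, the other common partner of alphaV, was at 2.89, 3.41 and 3.68 TPM untreated and at 16.6, 6.99 and 6.83 TPM treated. The treated values did not overlap the untreated ones, but TGFB1 1 was 2.40 times the mean of the other treated libraries (log2 fold change 1.26, SE 0.31, adjusted p = 0.0239). Itgb8, an alphaV partner known for activating latent TGFB, went the other way, from 6.56, 6.55 and 5.79 TPM to 0.947, 3.24 and 3.51 TPM (log2 fold change -1.13, SE 0.31, adjusted p = 0.0355). Without TGFB1 1 the fold changes were 0.87 for Itgb3 and -0.74 for Itgb8, both still called. Both calls were lost without any one untreated library and with no filter on low values, and that of Itgb8 also with a pseudocount of 0.1 (adjusted p up to 0.0799 for Itgb3 and 0.101 for Itgb8).

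**Figure D1:**
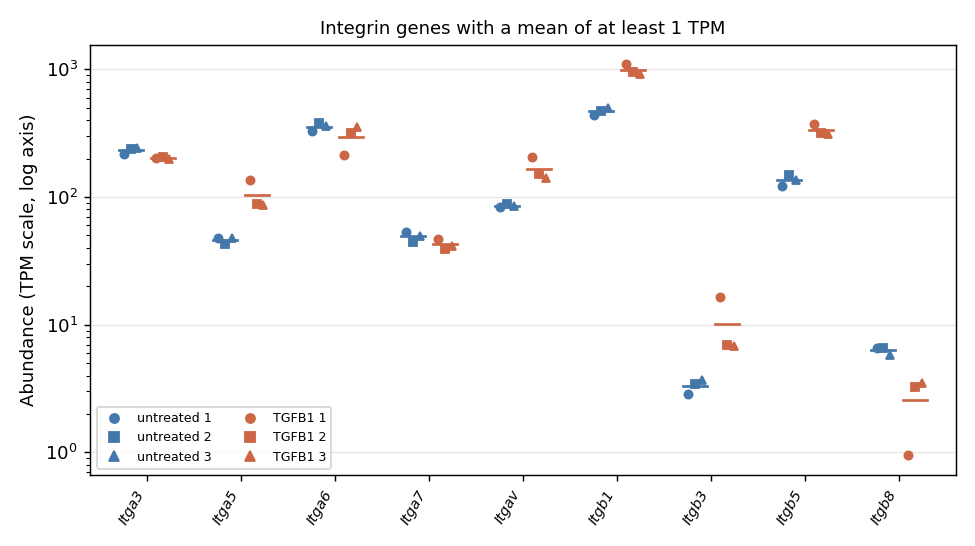
Abundance (TPM scale, log axis) of the 9 tested integrin genes, 1 point per library and a bar at each group mean. Itga5, Itgav, Itgb1, Itgb3 and Itgb5 have every treated library above every untreated one, and in Itgb8 TGFB1 1 lies lowest, at 0.947 TPM.

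The other 9 integrin genes, Itga1, Itga2, Itga4, Itga8, Itga9, Itga11, Itgb4, Itgb6 and Itgb7, had means of 0.0145 to 0.526 TPM and were not tested. Among them were all 3 collagen-binding alpha chains of the set. Itga2 was at 0.213, 0.0155 and 0.0195 TPM untreated and at 1.96, 0.412 and 0.258 TPM treated, Itga1 stayed between 0.130 and 0.317 TPM and Itga11 between 0.0363 and 0.307 TPM. In each of these 3 the treated libraries lay above the untreated ones, at levels too low to be measured with precision. Itgb4, the hemidesmosome chain, was at 0.570 ± 0.170 and 0.482 ± 0.149 TPM, and Itgb6, the epithelial activator of latent TGFB, stayed under 0.06 TPM. The alpha4-family chains were also low, with Itga4 at 0.175 ± 0.048 and 0.123 ± 0.031 TPM and Itga9 at 0.438 ± 0.178 and 0.177 ± 0.146 TPM, and Itgb7, a partner of alpha4, was at 0.286 ± 0.313 and 0.194 ± 0.161 TPM. Of the 9 integrin chains outside the set, mostly those of leukocytes and platelets, 2 were tested. Itga10, another collagen-binding chain, was not tested, at 0.870 ± 0.154 and 0.721 ± 0.204 TPM. Itgb2, the leukocyte beta chain, was at 1.53 ± 0.196 TPM untreated and 0.609 ± 0.127 TPM treated, and it passed the filter only through the untreated group, so its call as lower supports nothing. By contrast the platelet chain Itga2b, which also binds Arg-Gly-Asp ligands, was above the filter in both groups and was not called (adjusted p = 0.123). It was at 3.42 ± 0.695 TPM untreated and 1.81 ± 1.08 TPM treated.

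Because the scale is per transcript length, chains can be summed within a library. The 11 alpha chains together came to 730, 794 and 789 TPM untreated and 811, 803 and 821 TPM treated, a mean of 771 against 812 TPM. The 7 beta chains came to 574, 636 and 645 TPM untreated and 1491, 1279 and 1239 TPM treated. The summed alpha-to-beta ratio was therefore 1.27, 1.25 and 1.22 untreated and 0.544, 0.628 and 0.662 treated. The treated alpha totals lay just above the untreated ones, while every treated beta total was far above every untreated one.

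Within the alpha pool, the chains for Arg-Gly-Asp ligands made up 18%, 16.4% and 16.8% in untreated 1 to 3 and 42.3%, 29.7% and 27.8% in TGFB1 1 to 3. The laminin-binding chains held a share of 82.8% ± 0.823 untreated and 66.5% ± 8.01 treated, and a summed 639 ± 35.7 and 539.9 ± 66.6 TPM. The collagen-binding chains of the set and its alpha4-family chains each stayed under 0.3% of the pool in every library. In the beta pool Itgb1 held 76.4% ± 1.35 untreated and 73.9% ± 0.280 treated, Itgb5 21.9% ± 1.30 and 25.1% ± 0.123, and Itgb8 1.02% ± 0.123 and 0.200% ± 0.119. So the beta pool was larger with a similar makeup, while the alpha pool had a similar size and another makeup. These sums follow from the members' own values and carry no test.

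**Figure D2:**
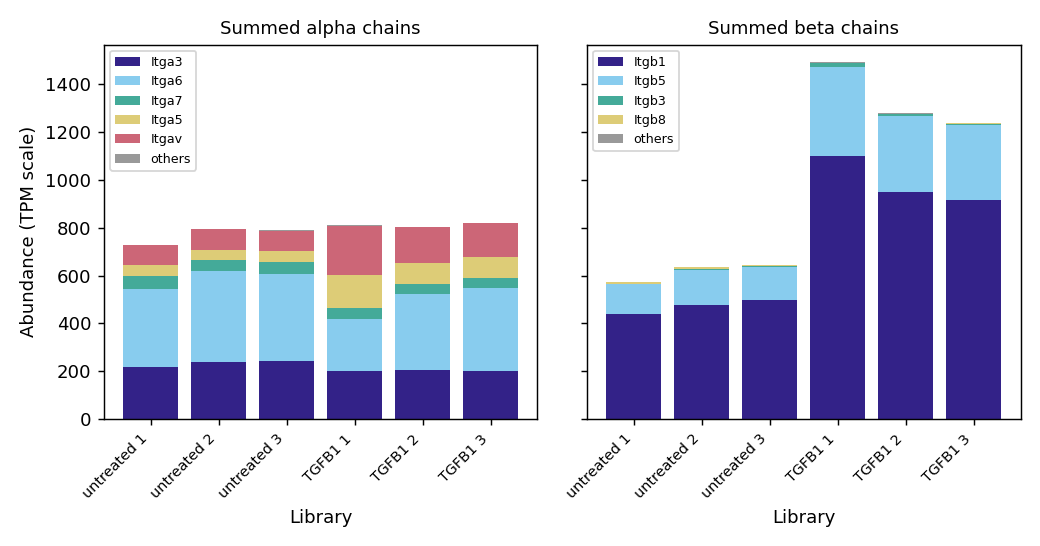
Summed abundance (TPM scale) of the integrin alpha chains (left) and beta chains (right) in each of the 6 libraries, stacked by gene. The alpha stacks stay between 730 and 821 TPM while Itga5 and Itgav take a larger part, and the beta stacks go from at most 645 TPM untreated to at least 1239 TPM treated.

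Start-site windows of 300 bases, from 250 before to 50 after the start, were read from RefSeq (GRCm38.p6). It held at least 1 window for 35 of the 45 genes, and more for some. These windows are the text searched. They were searched on both strands for CAGAC, the core of the SMAD element, for GGAATG, bound by TEAD factors, for TGANTCA, bound by AP-1, and for the CArG box, bound by SRF. None of these motifs contains another. A gene was counted if any of its windows matched, and members under the filter were left out of these counts. Among tested genes with a window, CAGAC was in 6 of 11 that rose, 4 of 4 that fell and 5 of 12 not called. It was in 53.2% of all 27025 genes of that table. GGAATG was in 1, 1 and 3 of the tested genes (16.6% of all genes) and TGANTCA in 1, 2 and 0 (8.97%). Bcar1 and Itga3, which fell, each had a window with CAGAC and another without. A match is a description of the letters, not a site. The Itgb1 window, chr8:128685404-128685703 on the plus strand, is shown as that of the most abundant integrin gene and holds 3 matches to CAGAC and 1 to GGAATG, in capitals.
Itgb1: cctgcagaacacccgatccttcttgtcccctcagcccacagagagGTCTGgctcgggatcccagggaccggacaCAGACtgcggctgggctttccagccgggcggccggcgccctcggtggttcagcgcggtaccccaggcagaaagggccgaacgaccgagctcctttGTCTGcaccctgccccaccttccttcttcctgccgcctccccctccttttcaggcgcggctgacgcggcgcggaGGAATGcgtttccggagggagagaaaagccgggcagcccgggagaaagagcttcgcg

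Among the adhesion adaptors 10 of 27 rose and 3 fell, and the rest did not pass. The shares were 37% and 11.1%, against 15.8% and 14.6% of all tested genes. Among related genes of the set Tns1, Actn1, Nedd9, Tgfb1i1 and Zyx rose, while Tns2, Tns3, Actn4, Bcar1, Pxn, Lpp and Trip6 were not called higher. Some relatives outside the set rose with a member, and others did not. Enah (59.6 ± 2.23 to 88.1 ± 22.1 TPM, adjusted p = 0.0449) and Evl (84.0 ± 2.12 to 116.8 ± 1.17 TPM, adjusted p = 0.00148) rose with their relative Vasp, and Fyn and Yes1 with Src. The zyxin relative Ajuba (45.1 ± 3.15 to 73.2 ± 9.33 TPM, adjusted p = 0.0044) rose with Zyx. Another zyxin relative, Limd1, was not called (39.9 ± 3.43 and 39.1 ± 3.36 TPM, adjusted p = 0.847). The median log2 fold change of the 27 was 0.08 and their median change in size 0.22, close to the 0.02 and 0.21 of all tested genes.

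Of the 9 genes that switch integrins on or link them to actin, 3 rose and 1 fell. The share called was 44.4%, against 30.4% of all tested genes. Tns1, a tensin of mature fibrillar adhesions, was at 58.3, 76.1 and 71.7 TPM untreated and at 261, 186 and 178 TPM treated. Each treated library was more than 2 times any untreated one (log2 fold change 1.57, SE 0.17, adjusted p = 0.00129). Its relative Tns2 was at 24.9, 26.1 and 26.8 TPM untreated and at 13.4, 19.5 and 24.2 TPM treated. The groups did not overlap but TGFB1 3 lay just under the untreated range, and the difference did not pass (log2 fold change -0.46, 95% interval -0.91 to -0.01, adjusted p = 0.11) except without TGFB1 3 (-0.65, adjusted p = 0.0317). Tns3 measured 55.7, 64.3 and 58.5 TPM untreated and 76.3, 53.8 and 51.1 TPM treated. TGFB1 1 was above the untreated libraries and the other treated ones were below them, which left a log2 fold change of 0.0011 (95% interval -0.36 to 0.36). The ratio of Tns1 to Tns3 was 1.05, 1.18 and 1.23 untreated and 3.42, 3.46 and 3.49 treated, so it was nearly the same in the 3 treated libraries.

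Actn1, a non-muscle alpha-actinin that crosslinks stress fibres, measured 388, 375 and 425 TPM untreated and 981, 678 and 639 TPM treated. It rose without overlap (log2 fold change 0.93, SE 0.16, adjusted p = 0.00682). Actn4, the other non-muscle alpha-actinin, was at 659, 719 and 739 TPM untreated and at 562, 624 and 626 TPM treated. It was called lower by a narrow margin (log2 fold change -0.22, SE 0.070, adjusted p = 0.0499), and the call was lost in 11 of 16 alternative fits, which include each of the 6 without 1 library (adjusted p up to 0.214). The ratio of Actn1 to Actn4 went from 0.590, 0.522 and 0.575 to 1.75, 1.09 and 1.02, so Actn1 was the less abundant of the pair in every untreated library and the more abundant in every treated one.

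Tln1, the main talin, did not pass, at 184 ± 13.5 and 174 ± 4.46 TPM (log2 fold change -0.08, 95% interval -0.24 to 0.08). Its low-abundance relative Tln2 rose from 5.05, 4.31 and 4.97 TPM to 9.97, 6.64 and 6.75 TPM (log2 fold change 0.59, adjusted p = 0.0326), a call lost without any one untreated library, with no filter and under quantile normalization (adjusted p up to 0.0985). The kindlin gene Fermt2 was at 73.2 ± 3.19 and 77.8 ± 3.22 TPM (log2 fold change 0.09, 95% interval -0.06 to 0.23). Vcl, which encodes vinculin, was at 166, 182 and 181 TPM untreated and at 145, 179 and 170.2 TPM treated. The groups overlapped and the difference did not pass (log2 fold change -0.10, 95% interval -0.32 to 0.11, adjusted p = 0.418). Of the exon bases of Vcl 25.5% also lie in exons of Ap3m1 on the other strand, and strand use in counting is a step not given in the sources used here, so its values are uncertain.

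The CArG box was found in windows of 3 of the 12 genes that were tested but not called, Vcl, Fermt2 and Trip6. It was in none of the 11 that rose or the 4 that fell, and in 1.81% of all genes. A window of Itgb6, a member that was not tested, also held one. The windows of Vcl, chr14:20929148-20929447 on the plus strand, and Fermt2, chr14:45530016-45530315 on the minus strand, are shown beside that of Tns1, chr1:74124499-74124798 on the minus strand, because Tns1 rose and both others did not pass. Capitals mark the CArG boxes CCTTATAAGG in Vcl and CCATAAAAGG in Fermt2, a GGAATG in Vcl and a CAGAC in Tns1.
Vcl: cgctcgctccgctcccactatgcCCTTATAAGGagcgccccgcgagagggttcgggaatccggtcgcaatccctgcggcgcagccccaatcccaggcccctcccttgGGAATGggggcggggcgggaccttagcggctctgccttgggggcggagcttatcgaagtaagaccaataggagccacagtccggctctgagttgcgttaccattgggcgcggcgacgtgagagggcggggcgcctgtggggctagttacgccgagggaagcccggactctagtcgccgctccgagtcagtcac
Fermt2: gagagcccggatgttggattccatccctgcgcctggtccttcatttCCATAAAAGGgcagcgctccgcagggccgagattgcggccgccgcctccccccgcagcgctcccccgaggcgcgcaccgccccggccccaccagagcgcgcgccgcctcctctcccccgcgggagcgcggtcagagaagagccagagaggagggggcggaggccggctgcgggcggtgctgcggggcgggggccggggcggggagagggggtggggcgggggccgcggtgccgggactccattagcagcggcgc
Tns1: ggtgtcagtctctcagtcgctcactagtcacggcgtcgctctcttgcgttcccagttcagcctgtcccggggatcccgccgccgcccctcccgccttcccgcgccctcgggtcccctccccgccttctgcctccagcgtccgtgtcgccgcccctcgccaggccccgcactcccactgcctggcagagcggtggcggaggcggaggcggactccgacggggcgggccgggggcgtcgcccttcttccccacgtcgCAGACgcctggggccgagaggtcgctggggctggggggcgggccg

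Of 7 genes of kinase signalling and the GIT scaffold 3 rose and 1 fell (57.1% called, against 30.4% of all tested genes). Nedd9, a docking protein of the p130Cas family, had the largest change of all 36 genes. It was at 37.2, 34.3 and 26.9 TPM untreated and at 135, 107 and 100.3 TPM treated, with no overlap. The treated mean was 3.48 times the untreated one, and the log2 fold change was 1.77 (SE 0.15, adjusted p = 0.00071). Bcar1, which encodes p130Cas itself, fell from 126, 104 and 102 TPM to 84.3, 81.9 and 83.5 TPM (log2 fold change -0.40, SE 0.087, adjusted p = 0.0156). The Bcar1 call was lost without TGFB1 2, by a narrow margin (adjusted p = 0.0504). Nedd9 was at 0.296 ± 0.033 of the Bcar1 level untreated and at 1.37 ± 0.208 of it treated, so the order of the pair turned in all 3 treated libraries.

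Ptk2, the gene of focal adhesion kinase, measured 76.0, 62.3 and 74.6 TPM untreated and 179, 116 and 116 TPM treated. The rise was 0.91 on the log2 scale (SE 0.18, adjusted p = 0.0112). Its partner kinase gene Src rose from 34.3, 37.8 and 36.1 TPM to 53.9, 55.6 and 53.4 TPM (log2 fold change 0.58, SE 0.062, adjusted p = 0.00144). Src was the rising gene with the most even treated values, and TGFB1 1 was not the highest. Pxn, the paxillin scaffold, was at 69.1, 71.8 and 67.6 TPM untreated and at 58.5, 62.6 and 63.7 TPM treated. The groups did not overlap, yet the difference did not pass (log2 fold change -0.17, 95% interval -0.31 to -0.03, adjusted p = 0.0725) except after median-of-ratios scaling (adjusted p = 0.0488). The GIT scaffolds, which dock on paxillin, did not pass either, with Git1 at 52.6 ± 1.57 and 55.1 ± 0.482 TPM and Git2 at 33.0 ± 2.95 and 37.6 ± 2.90 TPM.

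The complex of integrin-linked kinase, PINCH and parvin, which ties beta chains to actin, had 1 called member in 4. That share, 25%, was under the 30.4% of all tested genes. Lims2, the less abundant PINCH gene, fell from 10.1, 16 and 15.9 TPM to 6.77, 8.02 and 7.56 TPM (log2 fold change -0.80, SE 0.18, adjusted p = 0.0166). Untreated 1 lay closest to the treated values, and the call was lost without untreated 2 or untreated 3 (adjusted p up to 0.0635). Lims1, the major PINCH gene, was at 84.4 ± 1.16 and 78.1 ± 1.67 TPM (log2 fold change -0.11, 95% interval -0.23 to 0.01). Parva, the parvin gene, had nearly equal means, 231 ± 5.78 and 229 ± 6.12 TPM, with a 95% interval of -0.13 to 0.11 for its log2 fold change. Ilk was at 203, 220.2 and 241 TPM untreated and at 274, 249 and 246 TPM treated, without overlap but not called (log2 fold change 0.21, adjusted p = 0.0882); quantile normalization and rescaling without mitochondrial and abundant genes called it higher (adjusted p down to 0.0387). Its values are uncertain, because 89.7% of its exon bases lie in exons of Taf10 or Rrp8 on the other strand.

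Of the 7 zyxin-family, LIM and VASP genes 4 rose and none was called lower (57.1% called, against 30.4% of all tested genes). Zyx, whose LIM protein gathers on stretched adhesions and stress fibres, was at 226, 191 and 227 TPM untreated and at 741, 410 and 376 TPM treated. TGFB1 1 was 1.89 times the mean of the other treated libraries, though all 3 lay above the untreated ones (log2 fold change 1.18, SE 0.25, adjusted p = 0.0137). The call was lost without untreated 2 (adjusted p = 0.0532), and without TGFB1 1 the fold change was 0.87. Tgfb1i1, which encodes Hic-5, a paxillin relative first known as a TGFB1-induced transcript, rose from 37.0, 38.2 and 41.5 TPM to 89.8, 63.8 and 59.2 TPM (log2 fold change 0.83, SE 0.15, adjusted p = 0.00879). In the untreated libraries it stood at 0.560 ± 0.046 of the Pxn level and in the treated ones at 1.16 ± 0.327, below it only in TGFB1 3 (0.929).

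Pdlim7, a PDZ and LIM protein gene, went from 163, 163 and 175 TPM to 317, 282 and 267 TPM, a separated and fairly even rise (log2 fold change 0.78, SE 0.076, adjusted p = 0.00101). Vasp, whose product extends actin filaments at adhesions, rose from 74.1, 74.8 and 71.8 TPM to 139, 109 and 106 TPM (log2 fold change 0.67, SE 0.11, adjusted p = 0.00544). The zyxin relatives Lpp (22.5 ± 1.70 and 23.9 ± 1.61 TPM) and Trip6 (71.5 ± 2.96 and 72.1 ± 2.40 TPM) did not pass, nor did Pdlim5 (144 ± 4.03 and 138 ± 17.7 TPM). Their 95% intervals were -0.12 to 0.28, -0.13 to 0.15 and -0.30 to 0.16. The windows of Zyx, chr6:42349578-42349877 on the plus strand, and Trip6, chr5:137314192-137314491 on the minus strand, are shown as those of a family pair of which 1 rose. Zyx holds 1 match each to TGANTCA and CAGAC, and Trip6 a CArG box and a GGAATG, in capitals.
Zyx: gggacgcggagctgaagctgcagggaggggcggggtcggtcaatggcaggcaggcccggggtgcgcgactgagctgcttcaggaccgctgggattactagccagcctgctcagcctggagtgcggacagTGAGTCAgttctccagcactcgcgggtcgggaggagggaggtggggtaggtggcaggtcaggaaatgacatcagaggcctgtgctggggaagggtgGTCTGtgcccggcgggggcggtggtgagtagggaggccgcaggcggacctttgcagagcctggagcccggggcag
Trip6: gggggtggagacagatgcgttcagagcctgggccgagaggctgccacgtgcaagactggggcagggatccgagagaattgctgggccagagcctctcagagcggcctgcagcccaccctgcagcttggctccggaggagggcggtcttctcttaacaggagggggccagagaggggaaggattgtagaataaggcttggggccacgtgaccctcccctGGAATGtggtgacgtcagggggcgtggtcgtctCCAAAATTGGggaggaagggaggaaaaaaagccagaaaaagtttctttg

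**Figure D3:**
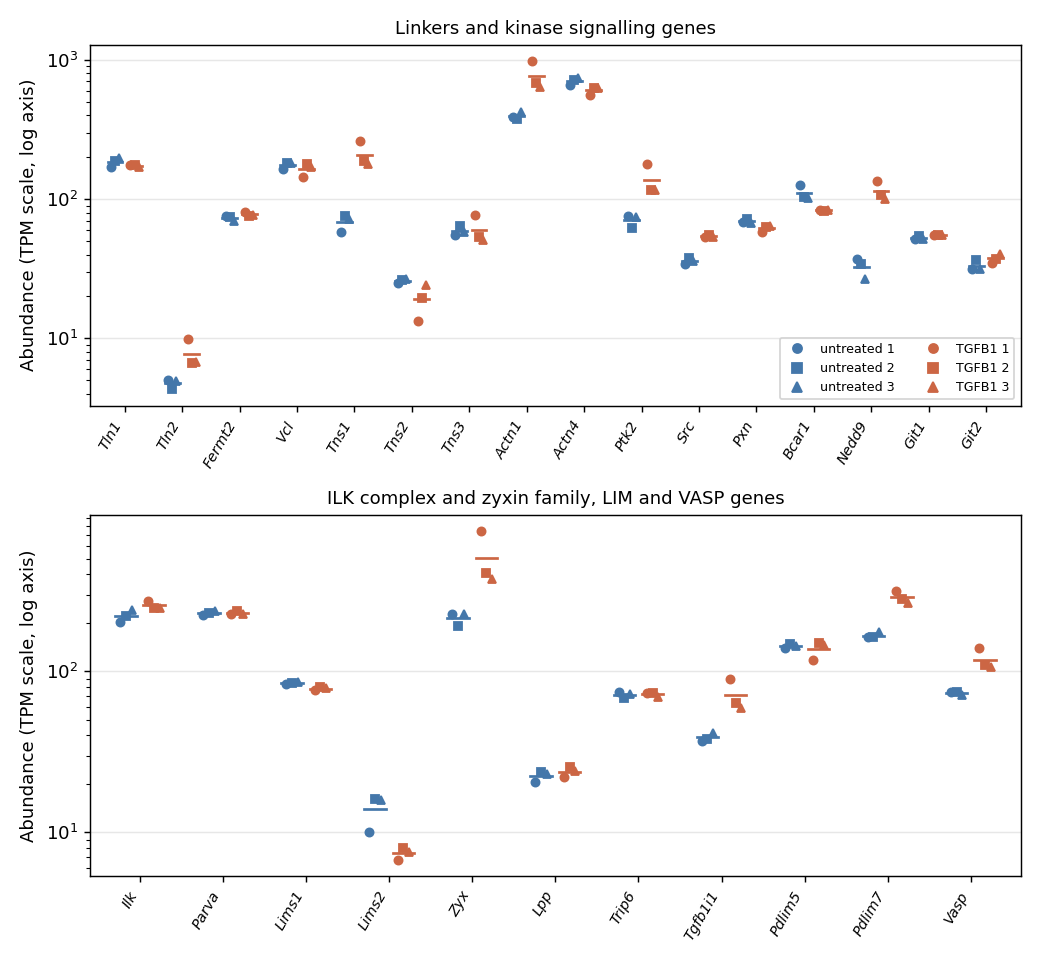
Abundance (TPM scale, log axis) of the 27 adhesion adaptor genes, 1 point per library and a bar at each group mean, with linkers and signalling genes above and the ILK complex and zyxin family below. Nedd9, Tns1 and Zyx show the widest gaps between groups, while Tln1, Vcl, Parva and Trip6 overlap.

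**Figure D4:**
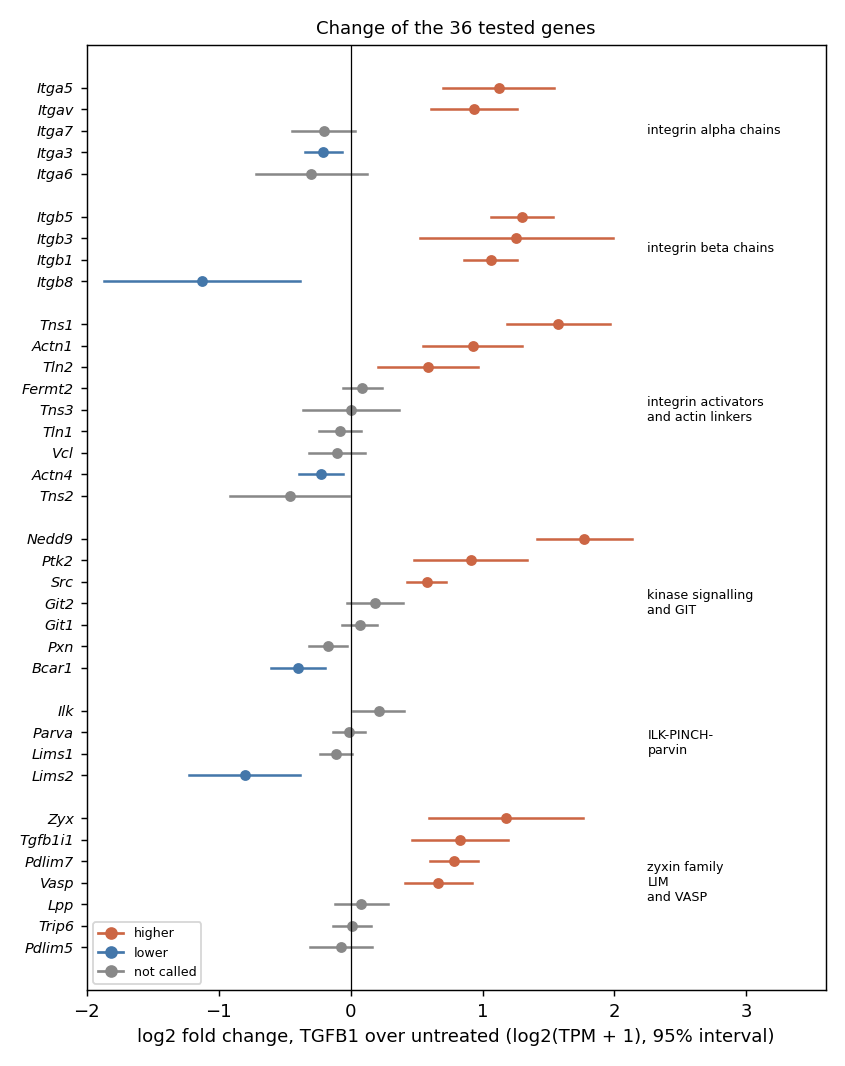
Log2 fold change (TGFB1 over untreated, on log2(TPM + 1)) of the 36 tested genes with its 95% interval, grouped by role and coloured by call. The values run from -1.13 for Itgb8 to 1.77 for Nedd9, and 16 grey genes were not called.

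Treated libraries differed in how far they moved. In 17 of the 20 called genes TGFB1 1 lay further from the untreated libraries than either other treated library, 85%, beside 70% of all called genes. The exceptions were Itga3, Src and Bcar1. The median coefficient of variation of the 36 genes was 6.63% in the untreated group and 10.2% in the treated one, beside 7.54% and 9.16% for all tested genes. Without TGFB1 1, where 32.2% of all tested genes were called, 19 of the 20 genes were still called, Actn4 was not, and Itga7 was called lower. No label sets TGFB1 1 apart from the other treated libraries, and the cause was not tested.

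**Figure D5:**
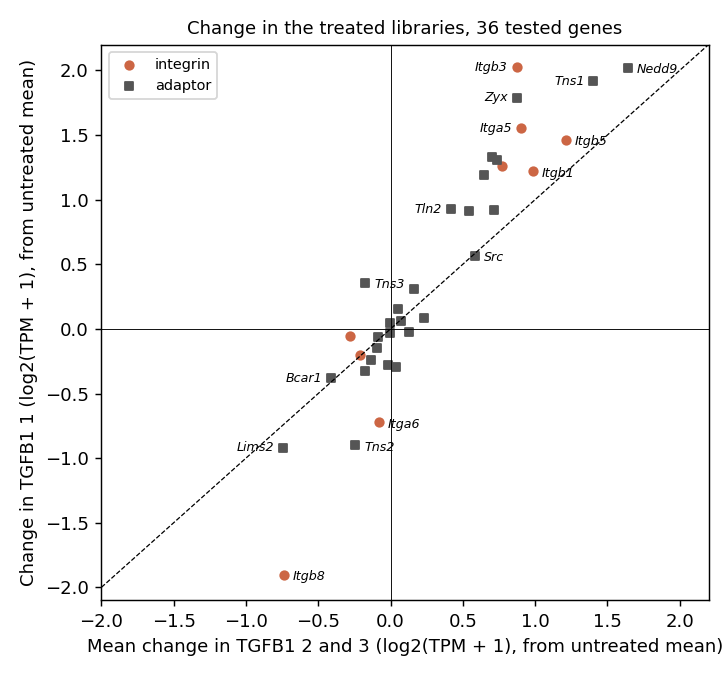
Change from the untreated mean in TGFB1 1 (y axis) against the mean change in TGFB1 2 and TGFB1 3 (x axis), both on log2(TPM + 1), for the 36 tested genes; the dashed line marks equal change. Itgb3, Zyx and Itga5 lie above the line and Itgb8 and Itga6 below it, while Src and Bcar1 lie on or near it.

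Genes around the integrins were counted from lists of textbook knowledge, chosen with earlier results of these data known. That choice can affect the shares called, which are descriptions only. Of 23 integrin ligand genes tested 12 rose and 5 fell (73.9% called, against 30.4% of all tested genes). One of the 12, the fibrillin gene Fbn1, at 0.294 ± 0.108 and 2.45 ± 0.910 TPM, passed the filter only through the treated group, which favoured its call. Col1a1, a collagen chain, rose by 4.35 on the log2 scale (adjusted p = 0.00011), Ctgf, a matricellular ligand, by 2.70 (adjusted p = 0.00512) and Ltbp1, which tethers latent TGFB to matrix, by 1.86 (adjusted p = 0.00143). The collagen chain genes Col1a2 (142 ± 15.4 and 145 ± 2.55 TPM, adjusted p = 0.744) and Col3a1 (345 ± 43.2 and 424 ± 45.8 TPM, adjusted p = 0.0898) were not called. Col4a1 (adjusted p = 0.0121) and Col4a2 (adjusted p = 0.0175) were called higher. Npnt, the nephronectin ligand of alpha8beta1, went down from 9.05 ± 0.771 TPM to 2.09 ± 1.05 TPM (a log2 fold change of -1.77, adjusted p = 0.00438). Laminin chains divided: Lama1 (99.9 ± 7.64 to 242 ± 14.6 TPM), Lamb1 (123 ± 4.13 to 204 ± 45.5 TPM) and Lamb3 (3.17 ± 1.04 to 5.99 ± 1.24 TPM) rose, and Lama5 (63.1 ± 4.82 to 42.7 ± 7.76 TPM), Lamb2 (65.5 ± 8.54 to 40.5 ± 5.2 TPM) and Lamc1 (109.7 ± 3.77 to 86.8 ± 7.31 TPM) fell. Fn1, the fibronectin ligand of alpha5beta1, rose from 168 ± 18.8 to 283 ± 4.88 TPM (log2 fold change 0.76). Vcam1, a ligand of alpha4beta1, fell from 258 ± 20.5 to 114 ± 10.9 TPM, and the alphaV ligand gene Vtn was under 0.13 TPM in every library.

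Of 30 further adhesion scaffold genes tested 13 rose and 3 fell (53.3% called, against 30.4% of all tested genes). The PDZ and LIM gene Pdlim1 rose from 110.0 ± 2.43 TPM to 705 ± 328 TPM (a log2 fold change of 2.58, adjusted p = 0.00146) and Fblim1, the migfilin gene, from 16.6 ± 2.91 to 58.8 ± 7.0 TPM (1.77, adjusted p = 0.000546). The LIM gene Tes rose (0.83, adjusted p = 0.00088) and the vinexin gene Sorbs3 fell from 41.0 ± 1.65 to 20.05 ± 6.53 TPM (-1.05, adjusted p = 0.0159). Of 21 further kinases and GTPase regulators 5 rose and 2 fell (33.3% called, near the 30.4% of all genes). The SRC-family kinase genes Fyn (1.49 ± 0.146 to 5.14 ± 1.65 TPM) and Yes1 (31 ± 3.37 to 53.6 ± 2.43 TPM) rose, as did the kinase gene Pak1 (17.4 ± 0.979 to 35.4 ± 7.97 TPM), and the FAK relative Ptk2b fell from 39.8 ± 2.40 to 25.5 ± 4.79 TPM.

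Integrin partners in the membrane leaned the other way from the beta chains. Of 10 listed and tested genes 6 fell and 2 rose (80% called, against 30.4% of all tested genes), with a median log2 fold change of -0.46. Cd47, which associates with alphaV and beta1 integrins, fell from 47.7 ± 1.07 TPM to 23.8 ± 3.49 TPM (a log2 fold change of -0.99, adjusted p = 0.00145) and the syndecan gene Sdc4, a fibronectin co-receptor, from 309.7 ± 31.2 to 165 ± 50.2 TPM (-0.95, adjusted p = 0.0226). Another syndecan gene, Sdc1, rose from 26.9 ± 1.69 to 55.0 ± 5.05 TPM (1.01, adjusted p = 0.00072), as did the urokinase receptor gene Plaur, from 84.8 ± 11.9 to 194 ± 75.0 TPM (1.13, adjusted p = 0.0162). Of 12 genes of integrin trafficking and adhesion turnover 1 rose and 1 fell (16.7% called, under the 30.4% of all tested genes). The sorting nexin gene Snx31 was at 3.48 ± 0.470 and 6.41 ± 0.688 TPM and the retromer gene Vps35 at 180.2 ± 3.76 and 149 ± 5.21 TPM.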

How the data were processed

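RNA of 6 libraries of the mouse line m1102, 3 untreated and 3 given TGFB1, was poly(A)-selected from 250 ng of total RNA with a strand-marking kit, per the labels' protocols. The authors deposited 1 table of a TPM-scale signal, a length- and depth-corrected abundance per gene. Per the submitters' processing notes, GRCm38, kallisto 0.44.0 and sleuth 0.30.0 were used, in roles not given in the sources used here, like the annotation, strand use and summing to genes. Column totals ran from 983434 to 1026702, so the values are not plain TPM. Depth is unknown, low values are measured less precisely, and no counting interval is given. Columns were tied to samples by group and replicate number, and 0 were left unused.

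Of 35688 gene rows the 12257 with a mean of at least 1 were fitted as log2(TPM + 1) with limma 3.58.1 in R 4.3.3 (lmFit, eBayes with trend), two-sided, Benjamini-Hochberg adjusted over all of them. The steps were tested on simulated data. Alternatives changed the pseudocount, filter, scaling, eBayes trend and repeated rows, added a replicate block or left out 1 library. All 45 members are named. From each other list, up to 4 called genes with the largest change are named. Further ones were chosen after their values were seen. These were Fn1, Vtn, Vcam1, Fbn1, laminin chains, further collagen chains, Itga2b, Itga10, Enah, Evl, Ajuba, Limd1 and cell type markers. Members and lists were chosen with earlier results of these data known. Exon overlap and shared 31-mers used GENCODE M21 (GRCm38) and Python 3.11.15: besides Ilk (78.4% of its 31-mers occur in another gene) and Vcl (25.3%), the highest share was 8.85%.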

Additional observations from a re-analysis of the deposited data

How the results depend on the processing

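Each of the 36 tested genes was refitted under up to 16 alternatives. Of the 20 called genes 12 kept their call and direction in all of them, and none of the 20 changed sign. The calls of Itga3, Itgb3, Itgb8, Tln2, Actn4, Bcar1, Lims2 and Zyx were lost in at least 1. The count of integrin genes that fell, 2 in the report, was 1 with a pseudocount of 0.1, with a filter at a mean of 5 TPM (which leaves Itgb8 out), under quantile normalization, after rescaling that set aside mitochondrial genes and the top 20 by abundance, without the eBayes trend and with a replicate block, and 0 with no filter. Without 1 library it ran from 0 to 3, adaptor genes that fell from 1 to 3, all genes that rose from 1121 to 1992 and all that fell from 915 to 1951. With a pseudocount of 5 the log2 fold changes of Itgb3, Itgb8 and Tln2 were 0.80, -0.60 and 0.38, all still called; under quantile normalization that of Actn4 was -0.14.

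Genes near 0 changed sign without being called. Tns3 was at -0.021 after median-of-ratios scaling, Parva at 0.032 under quantile normalization and 0.039 after rescaling, and Trip6 at -0.011 after median-of-ratios scaling and -0.0050 under quantile normalization. Without 1 library Tns3 ran from -0.18 to 0.11, Parva from -0.032 to 0.0078, Trip6 from -0.021 to 0.038 and Pdlim5 from -0.13 to 0.038. The rescaling called 2391 genes higher and 1423 lower, against 1937 and 1788 as deposited.

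No label says whether same-numbered libraries of the groups were paired. Their deviations from the group means correlated at 0.198, 0.153 and -0.0384. Those of differently numbered libraries correlated at -0.227 to 0.184. With 3 libraries per group these values cannot settle a pairing. With the replicate block 1 integrin gene fell in place of 2, since Itga3 lost its call, 1906 genes rose and 1924 fell, and no other member's call changed. Depth is unknown, so the 9 integrin genes under the filter cannot be told from background.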
